A study of Mus musculus with 17 samples.

Results

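The interferon-inducible GTPases examined here are 8 mouse genes: the guanylate-binding proteins Gbp2, Gbp3 and Gbp6, and the immunity-related GTPases Iigp1, Irgm1, Irgm2, Igtp and Ifi47. They were chosen by name, through the platform gene table, which gave them 11 of the 45101 probe sets of an Affymetrix M430v2 array and 8 of its 18194 named genes. The 17 arrays fall into 8 groups of sorted mouse CD4+ T cells. In the co-culture experiment, Foxp3- CD4+ T cells from the spleen of C57BL/6-Foxp3/GFP mice, in which green fluorescent protein reports the regulatory T cell factor Foxp3, were stimulated for 5 days by dendritic cells (DC), with 10 T cells for each DC, anti-CD3 at 1 µg/ml, TGFbeta at 0.6 ng/ml and IL-2 at 5 ng/ml. The DC came from the lamina propria of the gut (LP-DC) or from the spleen (Sp-DC), and some Sp-DC cultures also received retinoic acid (RA), a vitamin A metabolite, at 100 nM. The cells were then sorted by GFP, giving LP-DC Foxp3+ (2 arrays), LP-DC Foxp3- (2), Sp-DC+RA Foxp3+ (2), Sp-DC+RA Foxp3- (1), Sp-DC Foxp3+ (2) and Sp-DC Foxp3- (2). Titles and the sort field of the labels give the same sort for all 11 of these arrays, but the source field names Foxp3- cells for 5 of the 6 Foxp3+ arrays, and the groups follow the titles. In the memory experiment, CD44hi CD62L- CD25- CD4+ cells from spleen and lymph nodes of C57BL/6 mice were kept for 48 hours beside naive cells, at 2 memory cells for each naive cell, with anti-CD3/CD28 beads, IL-2 at 20 U/ml and TGFbeta at 10 ng/ml. They were sorted away from the naive cells by a congenic marker, giving memory cells with RA at 100 nM (3 arrays) and without it (3 arrays). Each array holds RNA pooled from 3 male mice of 6 to 10 weeks, amplified in 2 rounds before labelling, so all groups share stimulation through CD3, TGFbeta and IL-2, and no group is of unstimulated cells. No label says that the 2 or 3 arrays of a group come from separate cultures, so p-values measure the spread between arrays, which may be technical.

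Both families are large GTPases that cells make in quantity when interferon gamma, or type I interferon, acts on them. Interferon receptors activate STAT and IRF proteins, which bind gamma-activated sites (GAS) and interferon-stimulated response elements (ISRE) in the promoters of such genes. The proteins gather on vacuoles that hold intracellular parasites and bacteria and help to break them open. Iigp1 and Ifi47 are effector members of the immunity-related family, whereas Irgm1, Irgm2 and Igtp are regulatory members that sit on the cell's own membranes and keep the effectors inactive there. In mouse CD4+ T cells, Irgm1 is also known for the survival of activated cells exposed to interferon gamma.

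The cells carried the mark of CD4+ T cells: 7 of 7 measured CD4+ T cell markers lay above the array median on all 17 arrays. Of 9 measured markers of dendritic cells and macrophages, 3 to 4 lay above the median on an array, and Itgax, Cd209a, Lyz2, Cd68 and Xcr1 did so on 0 arrays. Of the 8 CD8 T and NK cell markers measured, Cd8b1, Ncr1 and Prf1 were above the median on 0 arrays, Cd8a on 6, Klrd1 on 13, Gzma on 16, and Nkg7 and Gzmk on 17. Klrd1 reached 11.53 and Gzma 11.22. Of 5 measured B cell markers, 2 to 4 lay above the median on an array: Ighm, at 9.84 to 11.38, and Ms4a1 did so on 17 arrays, Pax5 on 6, Cd79b on 3 and Cd79a on 1. The Foxp3 probe set read between 3.88 and 4.53 on the log2 scale on all 11 co-culture arrays, below every array median of 5.88 to 5.98, so it gives no check of the sort there. In bulk samples such as these, fewer cells of a type and less RNA per cell cannot be told apart.

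The 8 genes lie in a few clusters of the genome. In the RefSeq annotation of build GRCm38.p6, Gbp2 lies at chr3:142620663-142638008 and Gbp3 near it at chr3:142560016-142573213, with Gbp6 at chr5:105270702-105295871. Irgm1 lies at chr11:48865245-48871420 and Ifi47 at chr11:49076587-49096987, while Igtp, at chr11:58199556-58207592, is next to Irgm2, at chr11:58214977-58222783.

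RefSeq promoter windows, from 250 bases before to 50 after a start site in build GRCm38.p6, were used for 6 of the 8 genes, and Gbp6 and Iigp1 are named only. Both strands were searched for the ISRE core, a pair of GAAA blocks spaced by 2 bases, and for the GAS motif TTCNNNGAA. The stretches of 120 bases just upstream of the start site are printed here because interferons are known to act on this family through such motifs. Capitals mark the motif matches, and an ISRE core on the opposite strand reads as TTTC blocks.
Gbp2, chr3:142620543-142620662, plus strand: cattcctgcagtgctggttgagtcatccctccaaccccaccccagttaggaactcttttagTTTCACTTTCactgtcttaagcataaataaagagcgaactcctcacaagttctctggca
Gbp3, chr3:142559924-142560043, plus strand: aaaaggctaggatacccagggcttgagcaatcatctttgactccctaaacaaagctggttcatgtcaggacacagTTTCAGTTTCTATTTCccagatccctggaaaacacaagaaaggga
Irgm1, chr11:48871421-48871540, minus strand: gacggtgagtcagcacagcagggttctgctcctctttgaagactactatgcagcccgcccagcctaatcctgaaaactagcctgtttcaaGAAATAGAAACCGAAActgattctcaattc
Irgm2, chr11:58214857-58214976, plus strand: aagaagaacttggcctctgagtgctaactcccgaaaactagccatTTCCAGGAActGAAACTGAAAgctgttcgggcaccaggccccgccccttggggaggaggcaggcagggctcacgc
Igtp, chr11:58199436-58199555, plus strand: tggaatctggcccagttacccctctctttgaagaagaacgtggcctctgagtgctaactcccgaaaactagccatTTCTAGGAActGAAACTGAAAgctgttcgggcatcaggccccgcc

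An ISRE core was present in 5 of the 6 genes whose windows were used, and in 3.44% of the 32851 mouse promoter windows searched. Gbp3 and Irgm1 each held 2 cores that overlap, which makes the longer run of capitals in their stretches. A GAS motif was found in Irgm2 and Igtp, and in 8.3% of all windows. Both motifs together occurred in 0.454% of windows. In Irgm2 and Igtp the GAS motif ends 2 bases before the ISRE core. When the windows of these neighbouring genes were aligned at that site without gaps, 184 of 270 bases were identical (68.1%), with a shared run of 61 bases. The Ifi47 window and the window at the second Gbp3 start site held neither motif. A match describes letters in the window and does not show that a factor bound there.

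**Figure D1:**
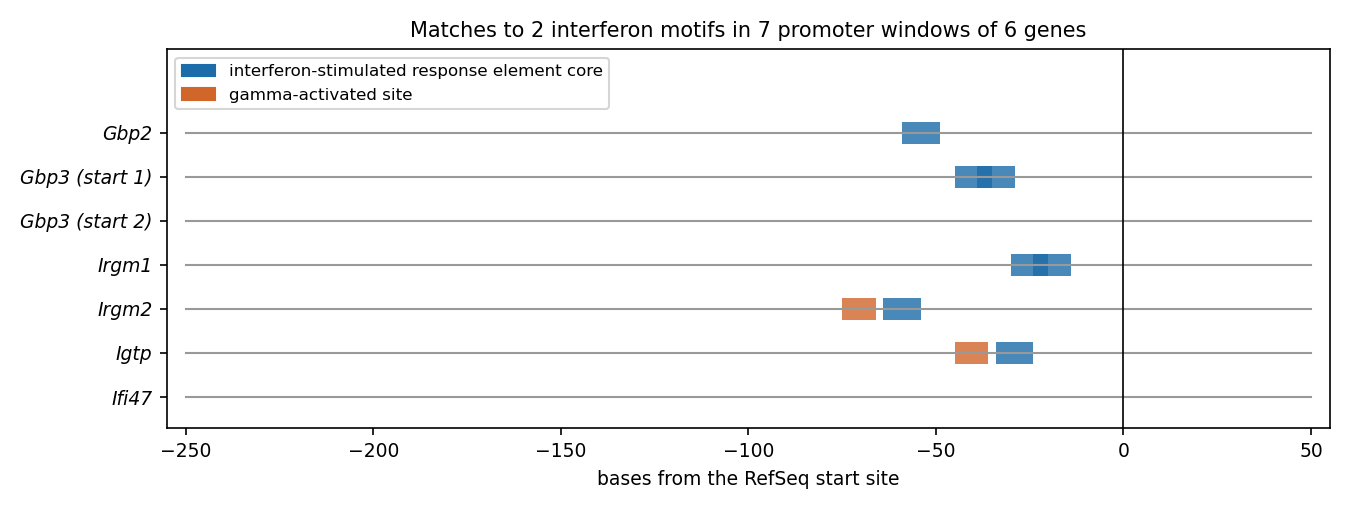
Positions of ISRE cores (blue) and GAS motifs (orange) in 7 promoter windows of 6 genes, in bases from the RefSeq start site, which is at 0. All matches lie in the 75 bases before the start site, and the Ifi47 window has none.

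By the probe set that represents each gene, all 8 genes read above every array median on all 17 arrays. The second Iigp1 set read 5.19 on Sp-DC+RA Foxp3+ array 1, below the median of that array, 5.93. In the co-cultures the genes shared the group with the highest mean, while the order of the other groups varied between genes. By the representing sets, the mean of LP-DC Foxp3+ cells was the highest of the 6 co-culture groups for 8 of the 8 genes. The second Gbp6 set had its highest mean in LP-DC Foxp3- cells, 10.37, against 10.24 in LP-DC Foxp3+ cells. Sp-DC+RA Foxp3+ cells had the lowest mean for 5 genes and Sp-DC+RA Foxp3- cells for 2, and Gbp3 was lowest in Sp-DC Foxp3- cells. The arrays of 9 of the 40 neighbouring pairs in these orders did not overlap, where 18.7% of such pairs did not over all genes tested, and those of 0 of the 8 memory pairs, where 7.81% did not. Overlap takes no account of the array numbers: for Gbp2 the arrays of LP-DC Foxp3+ and Sp-DC Foxp3+ cells overlap, yet LP-DC Foxp3+ was higher by 0.63 in number 1 and 1.21 in number 2. Values are log2 intensities. A probe set's level cannot be set against that of another, so genes are compared by their differences only.

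Gbp2 and Gbp3 are guanylate-binding proteins that coat pathogen vacuoles. Gbp2 read 9.40 and 10.81 in LP-DC Foxp3+ cells, 8.20 and 9.59 in LP-DC Foxp3- cells, 7.39 and 8.72 in Sp-DC+RA Foxp3+ cells, 8.41 in Sp-DC+RA Foxp3- cells, 8.77 and 9.60 in Sp-DC Foxp3+ cells, and 8.21 and 9.61 in Sp-DC Foxp3- cells. Gbp3 read 10.62 and 11.78 in LP-DC Foxp3+ cells, 9.18 and 10.39 in LP-DC Foxp3- cells, 9.23 and 10.22 in Sp-DC+RA Foxp3+ cells, 9.72 in Sp-DC+RA Foxp3- cells, 10.07 and 10.89 in Sp-DC Foxp3+ cells, and 8.90 and 10.38 in Sp-DC Foxp3- cells. Within every co-culture group with 2 arrays, array number 2 was higher than number 1 for both genes, by a mean of 1.27 for Gbp2 and 1.13 for Gbp3. Of the tested genes, 0.49% shifted more between the numbers than Gbp2 did. Gbp6, a related guanylate-binding protein, read 10.03 and 11.32 in LP-DC Foxp3+ cells, 10.27 and 10.82 in LP-DC Foxp3- cells, 8.16 and 9.17 in Sp-DC+RA Foxp3+ cells, 9.37 in Sp-DC+RA Foxp3- cells, 9.56 and 10.00 in Sp-DC Foxp3+ cells, and 9.94 and 10.38 in Sp-DC Foxp3- cells. The 2 arrays of Sp-DC+RA Foxp3+ cells lay below all the other co-culture arrays by this probe set of Gbp6. By its second set, Sp-DC+RA Foxp3+ array 2 (9.24) read above Sp-DC Foxp3+ array 1 (8.81).

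Iigp1, an effector GTPase encoded on chromosome 18, read 9.41 and 10.38 in LP-DC Foxp3+ cells, 8.74 and 9.34 in LP-DC Foxp3- cells, 6.99 and 7.78 in Sp-DC+RA Foxp3+ cells, 7.34 in Sp-DC+RA Foxp3- cells, 8.87 and 8.87 in Sp-DC Foxp3+ cells, and 8.31 and 8.51 in Sp-DC Foxp3- cells. The 3 arrays of RA-treated cultures were the lowest of the 11, with no overlap with the rest. Ifi47, the other effector, had the narrowest spread of the group: it read 12.46 and 13.02 in LP-DC Foxp3+ cells and between 12.17 and 12.26 on all 7 Sp-DC arrays, with or without RA. Among the regulatory members, Irgm2 read 11.22 and 11.64 in LP-DC Foxp3+ cells, 10.38 and 10.47 in Sp-DC+RA Foxp3+ cells, and 11.15 and 10.84 in Sp-DC Foxp3+ cells. Igtp read 11.76 and 12.40 in LP-DC Foxp3+ cells, 10.93 and 11.56 in Sp-DC+RA Foxp3+ cells, and 11.82 and 12.06 in Sp-DC Foxp3+ cells. Irgm1 read 9.43 and 10.40 in LP-DC Foxp3+ cells, 8.72 and 9.36 in Sp-DC+RA Foxp3+ cells, and 9.26 and 9.79 in Sp-DC Foxp3+ cells. In all 3 of these genes the Sp-DC+RA Foxp3+ mean was the lowest of the Foxp3+ groups.

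**Figure D2:**
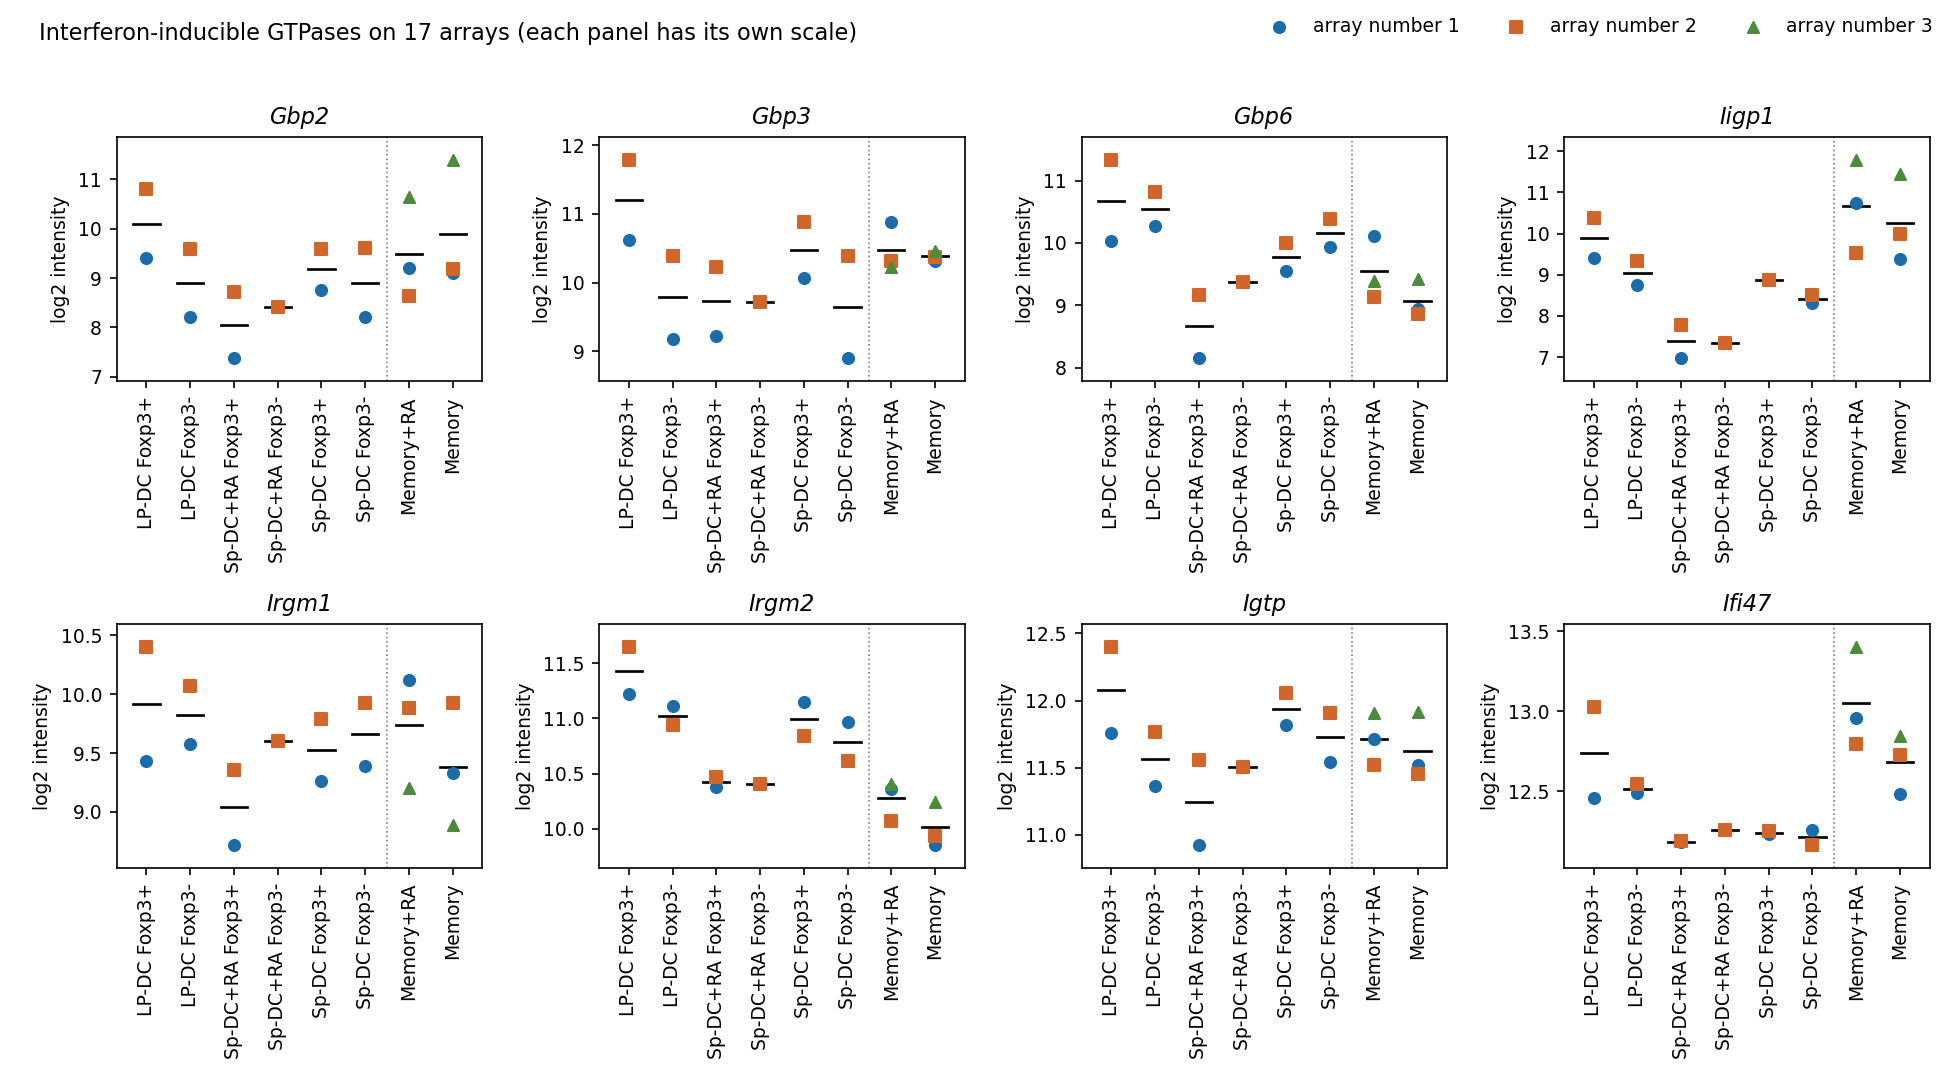
Log2 intensity of the 8 genes on each of the 17 arrays, by group, with marker shape for the array number and a black bar for the group mean. The 6 co-culture groups stand left of the dotted line and the memory groups right of it, and LP-DC Foxp3+ has the highest co-culture mean in all 8 panels, while array number 2 (orange) lies above number 1 (blue) in most pairs.

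Differences were tested with limma, once with the groups alone and once with the array number as a block, which removes what arrays of the same number share. The numbers did pair the arrays: residuals of same-numbered arrays correlated at 0.45 to 0.75 in 10 co-culture pairs. A gene is called here at a Benjamini-Hochberg adjusted p under 0.05 over all genes tested, 11846 in the co-cultures. Without the block, 0 of the 8 genes passed in any of the 13 comparisons. Of all genes tested without it, 0.92% passed in the Foxp3 sort over 3 cultures, 0.135% in the sort of LP-DC cultures, 0.101% with RA in Foxp3+ cells, 0.00844% with RA in Foxp3- cells, 0.0929% in LP-DC against Sp-DC+RA Foxp3+ cells, 0.0829% with RA in memory cells and 0.0717% for the memory effect of RA minus that in Foxp3+ cells, with 0 genes in the other comparisons. At an unadjusted p under 0.05, without the block, 6 of the 8 genes passed in LP-DC against Sp-DC+RA Foxp3+ cells (5.74% of all genes), 4 with RA in Foxp3+ cells (4.81%), 2 in LP-DC against Sp-DC Foxp3+ cells (7.99%), 2 in memory minus Foxp3+ cells (2.78%), 1 in the sort of LP-DC cultures (6.03%), 1 with RA in Foxp3- cells (2.47%) and 0 in the other comparisons. All calls named below therefore rest on the block. Comparisons among the Foxp3+ groups share arrays, so their results are not independent of each other.

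Setting LP-DC Foxp3+ cells against Sp-DC+RA Foxp3+ cells compares gut dendritic cells with spleen dendritic cells plus added RA. The median difference of the 8 GTPases was the largest of the 13 comparisons there, and 7 of them were higher in the LP-DC cells, where 1.11% of all genes tested were called higher. That median was 1.24 on the log2 scale, against 0.0078 for all genes. Iigp1 was 5.71-fold higher, a log2 difference of 2.51 ± 0.22 (SE, limma with block, adjusted p = 0.000615). Gbp2 was 4.15-fold higher (2.05 ± 0.16, adjusted p = 0.000348) and Gbp6 4.04-fold higher (2.01 ± 0.21, adjusted p = 0.00165), and Gbp3 2.78-fold higher (1.48 ± 0.16, adjusted p = 0.00208). The regulatory members were also higher, Irgm2 by 1.01 ± 0.19 (adjusted p = 0.0322), Irgm1 by 0.88 ± 0.14 (adjusted p = 0.0194) and Igtp by 0.84 ± 0.14 (adjusted p = 0.0195). Ifi47 differed by 0.56 ± 0.16 and did not pass (adjusted p = 0.146). In both array numbers 8 of 8 genes were higher in LP-DC cells, and for 8 of 8 the arrays of the groups did not overlap, as for 15.5% of all genes. Without the block the smallest adjusted p was that of Iigp1, 0.0727. Leaving out LP-DC Foxp3+ array 2, Sp-DC+RA Foxp3+ array 1 or Sp-DC+RA Foxp3+ array 2 left 4 calls, of Gbp2, Gbp3, Gbp6 and Iigp1, and without Sp-DC Foxp3- array 1 Irgm2 was lost. The summed intensity of the 9 dendritic cell and macrophage markers was 608 to 614 in LP-DC Foxp3+ cells and 777 to 963 in Sp-DC+RA Foxp3+ cells, and that of the 8 CD8 T and NK cell markers 1614 to 2115 and 2385 to 2951, both lower in the LP-DC cells. With limma and the block, Adgre1 of the first list (-1.51, adjusted p = 0.0382) and Cd8a of the second (-1.34, adjusted p = 0.0278) passed. The other tested markers of the first list did not pass, and were mixed: Flt3 differed by -0.15, Csf1r by 0.04 and Zbtb46 by 0.05. In the CD8 T and NK list Klrd1 (1.03) and Gzmk (0.04) ran the other way, without passing. The sum of the 5 B cell markers was 2295 to 2462 in LP-DC Foxp3+ cells and 1891 to 2052 in Sp-DC+RA Foxp3+ cells. That sum, weighted to Ighm, was higher like the GTPases, but the list was mixed. Ighm and Pax5 differed by 0.31, Ms4a1 by 0.02 and Cd79b by -0.80, none called. The part of these markers in the result was not tested.

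RA in Foxp3+ cells of Sp-DC cultures went with lower GTPase levels. Here 3 of the 8 genes fell, where 0.507% of all genes were called lower, and the median of the 8 was -0.73, against -0.0022 for all genes. Iigp1 was 2.79-fold lower in RA-treated cells, at 6.99 and 7.78, against 8.87 and 8.87 without RA (-1.48 ± 0.22, adjusted p = 0.0118 with limma and the block). Gbp2 was 2.19-fold lower (-1.13 ± 0.16, adjusted p = 0.0103) and Gbp6 2.17-fold lower (-1.12 ± 0.21, adjusted p = 0.0415). Igtp differed by -0.70 (adjusted p = 0.0518), Gbp3 by -0.75 (adjusted p = 0.0656), Irgm2 by -0.57 (adjusted p = 0.237) and Irgm1 by -0.49 (adjusted p = 0.189), none of which passed. Ifi47 differed by -0.06 ± 0.16, with a 95% interval of -0.43 to 0.31. The direction was shared: 8 of 8 genes were lower in RA-treated cells in array number 1 and in number 2, and for 6 of 8 the arrays did not overlap, as for 12.2% of all genes. Without Sp-DC+RA Foxp3+ array 1 or array 2 no call was left, and without Sp-DC Foxp3+ array 1 only Gbp2 was called. The call of Gbp6 was also lost when Sp-DC Foxp3- array 1 or 2, or Sp-DC Foxp3+ array 2, was left out, and with the pseudocount, with every probe set as a feature or with 1 fit over all arrays, and it held in 12 of 21 alternatives. The sum of CD8 T and NK cell markers was 2385 to 2951 in RA-treated cells, against 4008 to 5207 without RA. That sum moved the same way as the GTPases, but the 5 tested markers were split, with a median of 0.0062. Klrd1 (-1.43) and Nkg7 (-1.12) were lower with RA, Gzma (1.48) and Cd8a (0.52) were higher, and Gzmk differed by 0.0062. Only Klrd1 passed, and the part of these markers in the result was not tested. The B cell sum was 1891 to 2052 with RA and 1602 to 1800 without, and that of dendritic cells and macrophages 777 to 963 with RA and 666 to 753 without. Both lists were mixed, with no marker called. Ighm (0.25) and Cd79b (0.27) were higher with RA, and Ms4a1 (-0.16) and Pax5 (-0.17) lower. Adgre1 (0.84) was higher, and Csf1r (-0.09), Flt3 (-0.03) and Zbtb46 (-0.06) were lower. Their part in the result was not tested either.

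**Figure D3:**
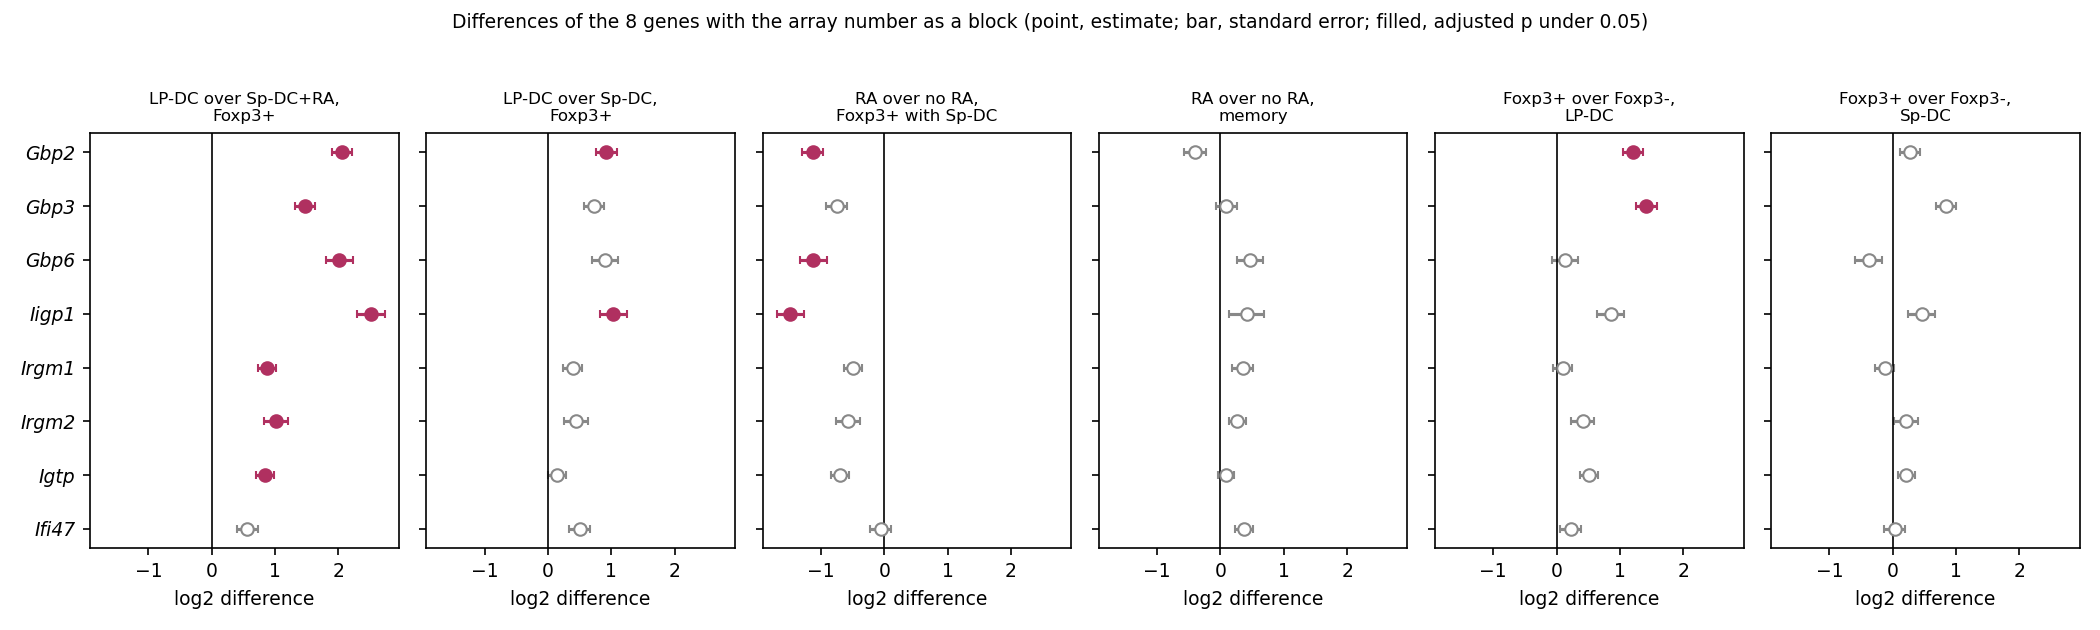
Log2 differences of the 8 genes in 6 comparisons, first-named group minus second, with the array number as a block (points with bars of 1 SE, filled where the adjusted p is under 0.05). All points lie right of 0 for LP-DC over Sp-DC+RA and left of 0 for RA in Foxp3+ cells, and the memory panel has no filled point.

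In Foxp3- cells of the same cultures the RA comparison rests on 1 RA-treated array, and 0 of 8 genes passed, where 0.262% of all genes did. Gbp2 read 8.41 in the RA-treated cells, against 8.21 and 9.61 without RA, and differed by -1.14 ± 0.20 with the block (adjusted p = 0.0794). Gbp6 differed by -1.16 and Iigp1 by -1.33 (adjusted p = 0.156 and 0.116). The test of a difference between the RA effects in Foxp3+ and in Foxp3- cells called 0 of 8 members and 0 genes in all, and for Iigp1 the difference was -0.15, with a 95% interval of -0.94 to 0.63. Which of the 8 genes passed in the Foxp3- comparison changed when either Sp-DC Foxp3+ array was left out. The number of calls over all genes tested also moved with 1 array left out. In all, 31 genes were called there with all arrays.

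LP-DC and Sp-DC cultures without RA differ in the DC source alone. In Foxp3+ cells 8 of 8 genes had positive differences, with a median of 0.61, and 2 passed, where 1.17% of all genes were called higher. Gbp2 was 1.89-fold higher in LP-DC Foxp3+ cells (0.92 ± 0.16, adjusted p = 0.0365) and Iigp1 2.04-fold higher (1.03 ± 0.22, adjusted p = 0.0499). Both calls were weak: that of Gbp2 was lost when either LP-DC Foxp3+ array, either Sp-DC+RA Foxp3+ array, either Sp-DC Foxp3- array or Sp-DC Foxp3+ array 2 was left out, and that of Iigp1 under the same omissions except that of LP-DC Foxp3+ array 1. The sum of CD8 T and NK cell markers was 1614 to 2115 in LP-DC Foxp3+ cells and 4008 to 5207 in Sp-DC Foxp3+ cells. The B cell sum, weighted to Ighm, was 2295 to 2462 in LP-DC Foxp3+ cells and 1602 to 1800 in Sp-DC Foxp3+ cells, higher like the GTPases. The list was mixed: Ighm differed by 0.56, Pax5 by 0.13, Ms4a1 by -0.14 and Cd79b by -0.53, none called. The part of these markers in the result was not tested. In Foxp3- cells the differences ran between -0.16 for Igtp and 0.64 for Iigp1, and 0 of 8 passed, where 0.861% of all genes did. Ifi47, which did not differ detectably with RA, read 12.49 and 12.54 in LP-DC Foxp3- cells, against 12.26 and 12.17 in Sp-DC Foxp3- cells, without passing (adjusted p = 0.399).

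The sort itself separated Gbp2 and Gbp3 in LP-DC cultures. There 2 of the 8 genes were called higher in Foxp3+ than in Foxp3- cells, where 2.40% of all genes were. Gbp3 was 2.67-fold higher in Foxp3+ cells (1.42 ± 0.16, adjusted p = 0.00197), and within the array numbers the differences were 1.45 and 1.39. Gbp2 was 2.31-fold higher (1.21 ± 0.16, adjusted p = 0.00382), with 1.20 and 1.21 within the numbers. Neither call was lost in any of 21 alternatives that kept the block, although without the block the adjusted p was 0.888 for Gbp3 and 0.9999 for Gbp2. The arrays of Gbp2 overlapped between the groups, because the number 2 array of the Foxp3- cells (9.59) read above the number 1 array of the Foxp3+ cells (9.40). Gbp6 and Irgm1 differed by 0.13 and 0.09 (adjusted p = 0.936 and 0.933). The sum of CD8 T and NK cell markers was 1614 to 2115 in LP-DC Foxp3+ cells and 5241 to 7054 in LP-DC Foxp3- cells, opposite to the 2 genes. The B cell sum, weighted to Ighm, was 2295 to 2462 in Foxp3+ cells and 1911 to 2150 in Foxp3- cells, higher like the 2 genes. The list was mixed: Ighm differed by 0.26, Pax5 by 0.05, Ms4a1 by 0.02 and Cd79b by -0.46, none called. The part of these markers in the result was not tested.

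Over all 3 culture types Gbp3 was higher in Foxp3+ cells by 0.94 ± 0.10 (adjusted p = 0.000997) and Gbp2 by 0.59 ± 0.10 (adjusted p = 0.00955), the 2 of 8 that passed, where 2.63% of all genes were called higher. Without Sp-DC Foxp3- array 1 the adjusted p of Gbp2 was 0.0557. In Sp-DC cultures 0 of 8 passed, where 0.557% of all genes did, and Gbp3 differed by 0.84 (adjusted p = 0.0577). In Sp-DC+RA cultures 0 of 8 passed, where 0.0253% did. The difference between LP-DC and Sp-DC cultures in the effect of the sort was not called for any of the 8 or for any of the 11846 genes tested, and was 0.93 ± 0.23 for Gbp2 (adjusted p = 0.619). Gbp6 ran the other way in Sp-DC cultures, at 9.56 and 10.00 in Foxp3+ cells, against 9.94 and 10.38 in Foxp3- cells, without passing (adjusted p = 0.647).

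In memory cells RA did not move the group detectably. Of the 8 genes 0 passed, where 4.94% of all genes did, and 7 of 8 differences were positive, with a median of 0.31. Gbp2 read 9.21, 8.63 and 10.64 in RA-treated memory cells, against 9.10, 9.18 and 11.38 without RA. Iigp1 read 10.73, 9.53 and 11.78 with RA, against 9.37, 9.98 and 11.45 without. The arrays numbered 3 stood apart for both genes: Gbp2 was 1.72 above the mean of numbers 1 and 2 in RA-treated cells and 2.24 above it in untreated cells, and Iigp1 1.64 and 1.77 above. Gbp6 read 10.11, 9.14 and 9.39 in RA-treated cells, against 8.93, 8.86 and 9.43 without RA. Array number 1 had 8 of 8 genes higher with RA, and numbers 2 and 3 had 4 of 8. Irgm1 differed from the rest in that number 3 was its lowest pair, at 9.20 with RA and 8.89 without.

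Single memory arrays decided calls here. Without memory array 1, or without memory+RA array 1, Gbp2 passed, while without memory array 2 Iigp1 and Irgm1 passed, and without memory+RA array 2 these 2 and Ifi47 did. With 1 memory array left out, between 206 and 804 genes were called in all, against 596 with all arrays. With both arrays numbered 3 left out, 0 of 8 passed. Ifi47 and Irgm2 were the genes with a higher value under RA in 3 of 3 numbers, with differences of 0.37 ± 0.14 (adjusted p = 0.240) and 0.27 ± 0.14 (adjusted p = 0.407).

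The RA effects in memory cells and in Foxp3+ cells were set against each other in 1 model over all arrays, where 12552 genes were tested. The effect was more positive in memory cells for 8 of 8 genes, by a median of 0.84, and 2 of 8 passed, where 0.837% of all genes were called higher. Iigp1 differed by 1.90 ± 0.42 (adjusted p = 0.0445) and Gbp6 by 1.59 ± 0.34 (adjusted p = 0.0371), while Igtp differed by 0.79 (adjusted p = 0.0513). The 2 experiments differ in starting cells, stimulus, TGFbeta dose and time, which cannot be told apart from cell type. The sum of CD8 T and NK cell markers also differed with RA in opposite directions. It was 1704 to 2153 in RA-treated memory cells and 793 to 1089 in untreated ones. In Foxp3+ cells it was 2385 to 2951 with RA and 4008 to 5207 without. There its markers were split, Klrd1 and Nkg7 being lower and Gzma and Cd8a higher with RA. The part of these markers in the result was not tested. Without Sp-DC+RA Foxp3+, Sp-DC Foxp3- or Sp-DC Foxp3+ array 1 or 2, memory array 1 or memory+RA array 1, neither gene was called. Gbp6 alone was lost without array 2 of either memory group, and Iigp1 alone without array 3 of either memory group or without an LP-DC Foxp3- array.

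The gene of interferon gamma itself was not highest where the GTPases had their highest co-culture means. Ifng read 5.15 and 5.52 in LP-DC Foxp3+ cells, below the medians of those arrays, against 6.63 and 8.08 in LP-DC Foxp3- cells. It was lower in the Foxp3+ cells (adjusted p = 0.0218 with limma and the block), by an amount that such low readings do not fix. Sp-DC+RA Foxp3+ cells, at 5.39 and 5.15, were also below their array medians, so Ifng cannot be compared between them and LP-DC Foxp3+ cells, and Sp-DC Foxp3+ cells read 6.14 and 7.60. In memory cells it read 8.60, 8.03 and 8.24 with RA, against 10.31, 9.25 and 8.92 without RA, and fell by 1.20 on the log2 scale (adjusted p = 0.00521). Ifngr1, the ligand-binding receptor chain, read 7.44, 8.20 and 9.93 in RA-treated memory cells, against 6.70, 6.41 and 7.68 without RA, a rise of 1.60 ± 0.24 (adjusted p = 0.00489). In Foxp3+ cells of Sp-DC cultures Ifngr1 differed by -0.15 with RA (adjusted p = 0.797). Irf1, a factor that binds ISRE sites, differed by 0.56 between LP-DC and Sp-DC+RA Foxp3+ cells (adjusted p = 0.184) and by -0.31 with RA in Foxp3+ cells (adjusted p = 0.553). The feedback inhibitor Socs1 differed by 0.03 and -0.13 in these comparisons and the receptor chain Ifngr2 by -0.03 and 0.31, none of which passed. Tbx21, the T-box factor of Th1 cells, was lower in Foxp3+ cells over the 3 cultures (adjusted p = 0.0129), with 4 of the 6 Foxp3+ arrays below their medians, so no size is given.

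Of 22 other interferon-inducible GTPases listed, 7 had a probe set of their own and 6 were tested. In LP-DC against Sp-DC+RA Foxp3+ cells 2 of the 6 were higher and 0 lower, where 1.11% of all genes were higher, with a list median of 0.45. Gm4951, an immunity-related GTPase gene, was higher by 1.98 ± 0.27 (adjusted p = 0.00737), and Gbp7, a guanylate-binding protein, by 0.78 ± 0.16 (adjusted p = 0.0440). With RA, Gm4951 fell in Foxp3+ cells (-1.76 ± 0.27, adjusted p = 0.0136) and was the 1 of 6 that passed. In Foxp3- cells Gm4951 also passed (-2.21 ± 0.34, adjusted p = 0.0333), on a single RA-treated array at 5.76, below its median. In Sp-DC+RA Foxp3+ cells 1 of its 2 arrays was below the median. Gbp7 was also higher in LP-DC Foxp3+ than Foxp3- cells, by 0.82 ± 0.16 (adjusted p = 0.0221). In memory cells Gbp2b rose with RA by 0.76 ± 0.14 (adjusted p = 0.0114), the 1 of 6 called.

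Of 20 tested genes outside the GTPases known to be induced by interferon gamma, 3 were higher and 0 lower in LP-DC than in Sp-DC+RA Foxp3+ cells, where 1.11% of all genes were higher, with a median of 0.40: Nlrc5, an activator of MHC class I genes (1.01 ± 0.15, adjusted p = 0.0105), the nucleotide hydrolase Samhd1 (0.72, adjusted p = 0.0347) and Parp14 (0.72, adjusted p = 0.0498). With RA in Foxp3+ cells 2 of 20 fell, where 0.507% of all genes did, with a median of -0.24: Nlrc5 (-0.79, adjusted p = 0.0428) and the MHC class I gene H2-D1 (-0.82, adjusted p = 0.0163). Of 22 tested genes induced by type I interferon, 1 was higher in LP-DC than in Sp-DC+RA Foxp3+ cells, the nucleic acid sensor Zbp1 (1.08 ± 0.19, adjusted p = 0.0266), and 0 passed with RA in Foxp3+ cells. In memory cells, where 4.94% of all genes passed in either direction, 3 of 21 tested rose with RA, the RNA sensor Ifih1 (1.26, adjusted p = 0.00199), Ifit2 (1.23, adjusted p = 0.000615) and the exonuclease Isg20 (0.67, adjusted p = 0.0298), and so did Xaf1 of the first list (0.56, adjusted p = 0.0433). The sum of CD8 T and NK cell markers was 1704 to 2153 in RA-treated memory cells and 793 to 1089 in untreated ones, and that of B cell markers 1930 to 2925 and 1106 to 1549, with Ighm higher by 1.04 ± 0.13 (adjusted p = 0.00156). Both sums moved with these genes, although Ms4a1 (-0.32) and Gzma (-0.04) ran the other way without passing. Their part in these results was not tested.

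Of 11 tested Th1 genes, 2 moved with the GTPases in both Foxp3+ comparisons. Of all genes, 1.11% were called higher in LP-DC than in Sp-DC+RA Foxp3+ cells and 0.507% lower with RA. The medians of the list were 0.06 and -0.23 there. The T-box factor Eomes fell with RA (-2.22 ± 0.26, adjusted p = 0.00405) and was higher in LP-DC than in Sp-DC+RA Foxp3+ cells (1.81 ± 0.26, adjusted p = 0.00962), and the interleukin-18 receptor chain Il18r1 fell with RA (-1.79 ± 0.26, adjusted p = 0.0103) and was higher in LP-DC cells (1.83 ± 0.26, adjusted p = 0.00871). In the sort of LP-DC cultures 3 of the 11 were lower in Foxp3+ cells, opposite to Gbp2 and Gbp3, as were 140 of the 11846 genes tested. Besides Ifng these were Cxcr3 and Il18rap (adjusted p = 0.0126 and 0.0421 with limma and the block). With RA in memory cells Fasl and Stat4 were higher and Ifng and Tbx21 lower, where 4.94% of all genes passed. Of 15 tested genes of interferon gamma, its receptor and signalling, 1 passed in LP-DC against Sp-DC+RA Foxp3+ cells. This was Irf8, which was lower (-0.94 ± 0.18, adjusted p = 0.0360), and 0 passed with RA in Foxp3+ cells. Of 13 genes of the ubiquitin-like conjugation system that loads these GTPases onto vacuoles, 0 passed with limma and the block in either comparison or in memory cells.

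**Figure D4:**
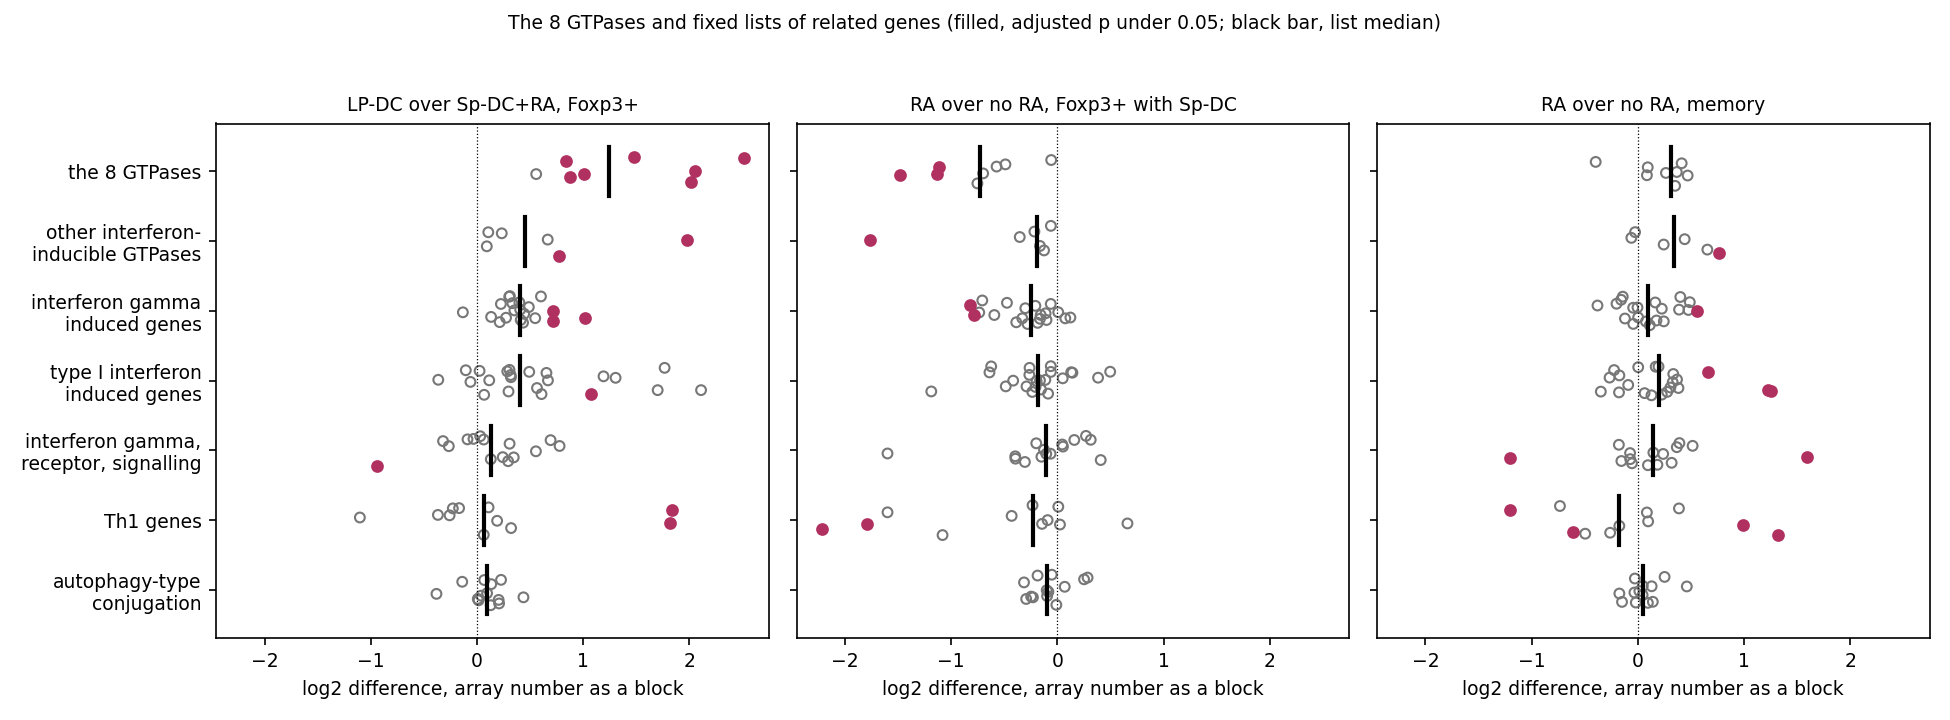
Log2 differences of the 8 GTPases and of 6 lists of related genes in 3 comparisons, first-named group minus second, with the array number as a block (each point a gene, filled where the adjusted p is under 0.05, black bar the list median). The 8 GTPases have the median farthest from 0 in both Foxp3+ comparisons, at 1.24 and -0.73, and in memory cells their median is 0.31 with no gene filled.

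Among themselves the 8 genes varied together in the co-cultures. Pearson's r between members over the 11 co-culture arrays, each gene centred on its mean, was positive in 28 of 28 pairs, with a median of 0.76 and a range of 0.49 to 0.95, the highest being Gbp2 with Igtp. Over the 6 memory arrays it was positive in 21 of 28, with a median of 0.48 and a range of -0.82 to 0.94, the lowest being Gbp2 with Irgm1. These arrays share groups and array numbers, so the values describe the arrays. Among 11432 genes tested in both experiments, the genes most like the mean of the 8 over 17 arrays were Gm4951 (r = 0.88), Tmem106b and H2-M3 (both 0.85), and then Dnah8, Plxnc1, Gpr18, Usp28, Flna, Akap13 and B3gnt5, with r between 0.83 and 0.81.

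Gbp2, Gbp6 and Iigp1 had 2 probe sets each. Their sets gave the same sign in 34 of 39 comparisons. In LP-DC against Sp-DC+RA Foxp3+ cells the second sets read 1.84 for Gbp2, 1.99 for Gbp6 and 2.58 for Iigp1, and with RA in Foxp3+ cells -0.98, -1.28 and -1.40. The second Iigp1 set was below the array median on Sp-DC+RA Foxp3+ array 1, and such a low reading does not fix its 2 sizes. When all 20131 probe sets were tested with the block, the second sets of Gbp2 and Iigp1 did not pass with RA in Foxp3+ cells (adjusted p = 0.0618 and 0.0757), that of Gbp6 did (0.0286), and the first set of Gbp6 did not (0.0506). The second Gbp2 set is of a type whose probes can match other transcripts, and members of these families resemble each other in sequence, so cross-hybridisation between paralogs was not tested.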

How the data were processed

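The deposited table holds intensities on a linear scale, made by the authors with RMA, per the labels and the submitters' processing notes; arrays, not reads, were measured, and their number limits the precision. No genome build is named in the labels. The values, from 4.058 to 27170, were log2-transformed with no pseudocount. A gene was represented by its probe set of highest mean log2 value, passing over sets that match several transcripts where another existed; 34958 probe sets have 1 symbol, 932 several and 9211 none. A gene was tested where 2 or more arrays of the experiment read above their own median (11846 in co-cultures, 12062 in memory cells) with limma 3.58.1 in R 4.3.3 (lmFit, contrasts, eBayes), adjusted by Benjamini-Hochberg. The design was fixed without pairing, and the fit with the array number as a block was set down as the second fit; the numbers come from the sample titles, and residuals of same-numbered arrays correlated at 0.45 to 0.75 (co-culture) and 0.65 to 0.94 (memory). All differences are given from the fit with the block unless stated. Scripts were tested on simulated data. The 8 genes and all lists were chosen with earlier results of these data known. Genes named from lists are among those that passed, at most 4 by size for each comparison, and not every gene that passed is named. Ifng, Ifngr1, Ifngr2, Irf1, Socs1 and Tbx21 are named in any case. Likeness names the 10 genes of highest r. Alternatives changed the normalization, filter, pseudocount (32), probe sets, variance model and arrays; those that kept the block were added after seeing the data. Promoter sequences are RefSeq's, build GRCm38.p6. The Sp-DC+RA Foxp3- group has 1 array, numbered 2, so its comparisons rest on it. Figures were drawn with matplotlib 3.10.9.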

Additional observations from a re-analysis of the deposited data

Results flagged for a closer look

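The effect of RA differed between memory cells and Foxp3+ cells of Sp-DC cultures for 2 of the 8 GTPases, by the test of the difference itself in 1 limma fit over all arrays with the array number as a block. For Iigp1 the memory effect minus the Foxp3+ effect was 1.90 (adjusted p = 0.0445), from 0.41 in memory cells and -1.48 in Foxp3+ cells. For Gbp6 it was 1.59 (adjusted p = 0.0371), from 0.47 in memory cells and -1.12 in Foxp3+ cells. Over the 26 alternatives that kept the block, the adjusted p ran between 0.0121 and 0.211 for Iigp1 and between 0.0257 and 0.187 for Gbp6, the call held in 9 for Iigp1 and in 15 for Gbp6, and the adjusted p was 0.9997 for both without the block.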

How the results depend on the processing

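The replicate block decided every call. Without it 0 of 8 genes passed in any comparison, and with it 7 passed in LP-DC against Sp-DC+RA Foxp3+ cells, 3 with RA in Foxp3+ cells, and 2 each in LP-DC against Sp-DC Foxp3+ cells, in the Foxp3 sort of LP-DC cultures, in the sort over 3 cultures and in memory minus Foxp3+ cells; no other comparison's count changed. Without the block, quantile normalization gave 1 call, Iigp1 in LP-DC against Sp-DC+RA, and leaving out 1 array gave 0 throughout. All 404 alternative values of the 18 calls made with the block kept their direction. With the block and 1 array left out, the lone array of a group being assumed to vary like the others, the counts ran between 4 and 8 (LP-DC against Sp-DC+RA), 0 and 3 (RA, Foxp3+), 0 and 3 (LP-DC against Sp-DC, Foxp3+), 2 and 3 (sort, LP-DC), 1 and 3 (sort, 3 cultures), 0 and 2 (RA, Foxp3-), 0 and 3 (RA, memory) and 0 and 2 (memory minus Foxp3+). Fitting only the groups compared gave 5 with RA in Foxp3+ cells, 1 in the Sp-DC sort, 0 in LP-DC against Sp-DC Foxp3+ cells, 1 in Foxp3- cells and 1 in memory minus Foxp3+ cells. The Sp-DC sort also had 1 call, Gbp3, under quantile normalization and under trended, robust variances. LP-DC against Sp-DC Foxp3+ cells had 1 call, Gbp2, with median-centred arrays, no filter, the pseudocount, every probe set as a feature or 1 fit over all arrays, and 0 with the mean of all probe sets. With RA in Foxp3+ cells Gbp6 was lost with the pseudocount, every probe set or 1 fit over all arrays. Memory minus Foxp3+ cells had 1 call, Gbp6, with median-centred arrays, 0 with every probe set, and Gbp6 and Igtp in place of Iigp1 with the pseudocount or trended, robust variances. When 1 array was left out, the number of calls over all genes tested moved as well, so those ranges are not particular to the 8 genes. The cause of these changes was not tested. With 1 to 3 arrays a group, differences well under 1 on the log2 scale mostly did not pass.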
